A study of Mus musculus with 8 samples.

Results

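RXR binding near 78 genes of the heat shock and chaperone families was examined in hearts of newborn mice. These are the protein-coding genes whose symbols begin with Hspa, Hspb, Hspd, Hspe, Hsph, Dnaja, Dnajb, Dnajc or Bag and a digit, or with Hsp90, out of 21900 protein-coding genes. Retinoid X receptors (RXR) were immunoprecipitated with their DNA and sequenced (ChIP-seq) from the nuclei of total hearts at postnatal day 0. The wild-type (WT) group had 2 hearts, numbered 3 and 4. The edKO group had 2 hearts with the same numbers, in which both Rxra and Rxrb (RXRab-/-) were deleted in cardiomyocytes. The other cells of an edKO heart keep these genes, and the labels do not name the driver of the deletion. The labels name no treatment and no litter, so a p-value here measures only the spread between these hearts. A peak was assigned to a gene when its summit lay within 10 kb of either gene end. Peak lists hold no RNA or protein level, so neither the deletion nor the cell types of the tissue could be checked against marker genes.

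Molecular chaperones keep proteins folded, and the heart, whose cells contract without pause and are rarely replaced, depends on them for its sarcomeres and mitochondria. Hsp70 proteins bind unfolded stretches of a client in an ATP-driven cycle. J-domain proteins (Dnaja, Dnajb and Dnajc) bring clients and trigger ATP hydrolysis, and Hsp110 and BAG proteins exchange the nucleotide. Hsp90 completes the folding of kinases and steroid receptors, Hsp60 and Hsp10 form the folding chamber of mitochondria, and small heat shock proteins hold clients until Hsp70 takes over. Many of these genes are induced by heat shock factor 1, which binds alternating repeats of GAA and its complement. RXR binds the hexamer AGGTCA, usually with a partner receptor on a repeat of it.

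Chaperone genes carried RXR regions in WT hearts more often than protein-coding genes as a whole, and these regions were of modest height. A region with overlapping peaks in both WT hearts lay near 30 of the 78 genes, or 38.5% (95% Clopper-Pearson interval 27.7 to 50.2%), against 15.2% of all protein-coding genes. The 30 genes lay near 34 regions. They included the mitochondrial chaperonin genes Hspd1 and Hspe1, the constitutive Hsp70 gene Hspa8, all 4 Dnaja genes and the small heat shock protein genes Hspb1, Hspb2, Hspb7 and Hspb11. WT replicate 3 had a peak near 55 members (70.5%, against 42.4% of all genes) and WT replicate 4 near 32 (41.0%, against 15.8%). Without WT replicate 4 the count is thus 55, and without WT replicate 3 it is 32. These counts describe 2 hearts. Genes are not replicates and were not matched on expression, promoter type or gene density.

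Promoter sequences are shown for members whose RXR summit fell inside the window from 250 bases before to 50 after an annotated start (RefSeq, GRCm38.p6, the build of mm10). They show what the letters under a summit hold. Of the 78 members 63 were matched in the table of promoters, and 12 of the 30 members with a shared region had the summit of WT replicate 3 inside a window. Capitals mark matches to the heat shock motifs GAANNTTC and TTCNNGAA, which read alike on both strands and can overlap each other, and to AGGTCA on either strand. The start base is position 0 in the text. The sequences run 5′ to 3′ along the gene, and those of Dnajc19, Hspe1, Dnajb12, Dnaja1 and Hspa5 are among the 8 highest by mean fold enrichment. Hspd1, also among these 8, has a window that covers most of the Hspe1 window on the other strand. Dnajb5 and Dnajc14, the remaining members of the 8, hold no match and are not printed, and Hspb1 was added after its matches were seen.
Dnajc19 (chr3:34081305-34081604, mm10, minus strand): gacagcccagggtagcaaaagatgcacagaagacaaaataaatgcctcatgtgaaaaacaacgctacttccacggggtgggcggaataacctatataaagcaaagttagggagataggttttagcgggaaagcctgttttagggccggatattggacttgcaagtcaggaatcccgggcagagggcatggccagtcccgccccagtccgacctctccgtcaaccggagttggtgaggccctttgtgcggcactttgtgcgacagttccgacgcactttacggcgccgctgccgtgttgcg
Hspe1 (chr1:55087898-55088197, mm10, plus strand): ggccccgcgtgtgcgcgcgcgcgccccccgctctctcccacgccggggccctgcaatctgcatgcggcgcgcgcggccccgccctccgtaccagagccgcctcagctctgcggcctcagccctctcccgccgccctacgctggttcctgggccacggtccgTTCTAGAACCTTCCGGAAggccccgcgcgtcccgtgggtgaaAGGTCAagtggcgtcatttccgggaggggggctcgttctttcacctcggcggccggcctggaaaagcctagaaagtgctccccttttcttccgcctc
Dnajb12 (chr10:59879333-59879632, mm10, plus strand): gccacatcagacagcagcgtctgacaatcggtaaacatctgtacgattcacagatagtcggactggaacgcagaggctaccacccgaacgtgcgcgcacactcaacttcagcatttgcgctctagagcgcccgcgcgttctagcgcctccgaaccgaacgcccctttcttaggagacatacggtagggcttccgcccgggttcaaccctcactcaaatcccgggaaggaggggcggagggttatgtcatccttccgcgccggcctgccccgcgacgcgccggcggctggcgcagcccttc
Dnaja1 (chr4:40722218-40722517, mm10, plus strand): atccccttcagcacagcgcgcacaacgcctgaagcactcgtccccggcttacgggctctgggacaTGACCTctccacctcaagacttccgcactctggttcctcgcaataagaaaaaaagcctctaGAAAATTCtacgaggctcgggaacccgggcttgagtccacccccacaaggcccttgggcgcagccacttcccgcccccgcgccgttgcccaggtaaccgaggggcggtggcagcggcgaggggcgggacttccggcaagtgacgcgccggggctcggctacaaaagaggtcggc
Hspa5 (chr2:34771840-34772139, mm10, plus strand): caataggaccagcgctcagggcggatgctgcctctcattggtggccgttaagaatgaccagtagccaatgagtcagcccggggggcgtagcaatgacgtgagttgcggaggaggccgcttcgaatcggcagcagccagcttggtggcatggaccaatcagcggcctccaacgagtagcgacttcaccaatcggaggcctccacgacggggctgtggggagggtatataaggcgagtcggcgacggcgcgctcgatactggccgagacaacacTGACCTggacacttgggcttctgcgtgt
Hspb1 (chr5:135887669-135887968, mm10, plus strand): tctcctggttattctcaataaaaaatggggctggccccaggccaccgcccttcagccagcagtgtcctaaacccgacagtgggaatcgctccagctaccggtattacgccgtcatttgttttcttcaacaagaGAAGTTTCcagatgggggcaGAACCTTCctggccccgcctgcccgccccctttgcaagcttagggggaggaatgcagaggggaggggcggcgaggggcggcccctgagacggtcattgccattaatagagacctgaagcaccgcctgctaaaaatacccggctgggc

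The window of Hspe1, which starts opposite Hspd1, held 3 overlapping heat shock matches in 1 run from -89 to -72, and AGGTCA from -47 to -42. The RXR summit lay between them, at -66 in WT replicate 3 and -63 in WT replicate 4. In Dnaja1 the summits lay at -184 and -191 in the same order, the first within an AGGTCA of the other strand from -185 to -180 and the other just upstream of it. A heat shock match stood from -124 to -117. Hspb1 held heat shock matches from -117 to -110 and from -97 to -90, and its summits lay at -74 and -129. In Hspa5 the match was to AGGTCA on the other strand from 22 to 27, away from the summits at -202 and -262. The windows of Dnajc19 and Dnajb12 held no match, although these regions were among the highest of the list in WT replicate 3.

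**Figure D1:**
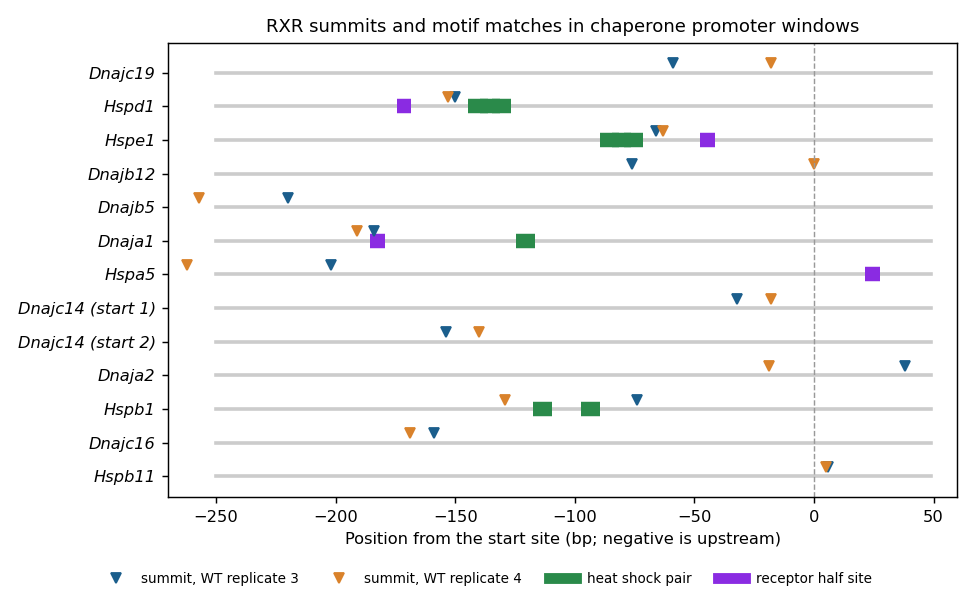
Each line is a promoter window of a member with an RXR summit inside it, drawn in bp from the start site. Triangles mark the summits of WT replicates 3 and 4, green blocks heat shock matches and violet blocks AGGTCA on either strand. The WT replicate 4 summits of Dnajb5 (-257) and Hspa5 (-262) fall outside the windows. Heat shock matches appear in 4 of the 12 genes, Hspd1, Hspe1, Dnaja1 and Hspb1, against 15.7% of all genes in the table of promoters. Those of Hspd1 and Hspe1 are the same bases on opposite strands.

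Heat shock matches were common in the family with or without an RXR region. At least 1 of the heat shock motifs stood in a window of 17 of the 63 matched members (27.0%), against 15.7% of 17492 protein-coding genes in the table. Among members with a shared region it was 7 of 24, and among members without, 10 of 39. These genes are not all separate, since Hspd1 and Hspe1 hold the same matches, and the near-identical copies Hspa1a and Hspa1b the same match. Over all protein-coding genes it was 13.3% of those with a shared region and 16.2% of those without. AGGTCA stood in a window of 16 of the 63 (25.4%, against 16.7% of all genes), 8 of the 24 with a region and 8 of the 39 without. Over all protein-coding genes AGGTCA was as common with a shared region (16.7%) as without (16.7%). Over all 21263 windows of 300 bp, 7.21% held GAANNTTC, 7.61% TTCNNGAA and 14.7% AGGTCA. Direct repeats of AGGTCA spaced by 1 base (DR1) or 4 bases (DR4), searched on both strands, stood in no member's window, and in 0.0470% and 0% of all windows. Member promoters had a median GC content of 62%, against 56.3% for all genes in the table, and those with a shared region 63.6%. Over all protein-coding genes it was 62% in those with a shared region and 55% in those without. A match is a string of letters and not a measured site.

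By mean fold enrichment, the mitochondrial members Dnaja3, Dnajc19, Hspd1 and Hspe1 came directly after Dnajc25 and Bag4 at the upper end of the list. In WT replicate 4 alone, Hspa8 (9.92), Dnajc18 (9.39), Dnajb5 (9.05) and Hspa4 (8.41) stood above these mitochondrial members. Dnaja3 had 8.21 in that heart, and Dnajc19 and the region of Hspd1 and Hspe1 had 6.29 each. The list of mitochondrial members was put together after earlier results were known and is not complete. Of its 9 genes 6 had a shared region (66.7%, 95% Clopper-Pearson interval 29.9 to 92.5%, against 15.2% of all genes). Hspd1 and Hspe1 encode Hsp60 and Hsp10 and share 1 region on chromosome 1 from 55087742 to 55088514 (mm10). Its fold enrichment, the authors' ratio of the fragment pileup at the summit to the local background, was 15.4 in WT replicate 3 and 6.29 in WT replicate 4. Fragments behind these values, recovered from the deposited statistics, numbered 57 (95% exact Poisson interval 43.2 to 73.9) and 51 (38.0 to 67.1). These intervals cover counting error only. Fold enrichments are relative to each heart's own background, so a difference between hearts is not a difference in binding alone.

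Dnaja3 encodes the J-domain partner of mitochondrial Hsp70. The summit of its region (chromosome 16, 4683544 to 4684084) lay 262 bp upstream of the start. Its fold enrichment was 17.0 in WT replicate 3 and 8.21 in WT replicate 4. Dnajc19, a J-domain protein of the inner mitochondrial membrane whose loss causes a cardiomyopathy with ataxia in people, had fold enrichments of 17.6 and 6.29, on chromosome 3 from 34081219 to 34081674. For both genes the fold interval of WT replicate 3, which is the Poisson interval of the fragments over that heart's own background held fixed, lay above that of WT replicate 4. The intervals of the fragments themselves overlapped at Dnaja3 and were apart at Dnajc19. Dnajc11, of the machinery that shapes the inner membrane, had 8.48 and 6.08, with the summit inside the gene and 51 bp from its end. Hspa9, the mitochondrial Hsp70 itself, had a lower region, at 4.90 and 4.33, on chromosome 18 from 34954612 to 34955047. Only the peak 437 bp outside Hspa9 was shared, while 2 more peaks of WT replicate 3 flanked it, at 5.72 and 5.10. Of the other 3 mitochondrial members, Dnajc15 had a peak in WT replicate 3 (4.48), and Dnajc28 and Dnajc30 had none.

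Of 9 genes listed as chaperones of the endoplasmic reticulum 3 had a shared region (33.3%, interval 7.49 to 70.1%). This interval includes the 15.2% of all genes. These were Hspa5, Hsp90b1 and Dnajc25. This list, too, is not complete. It leaves out Dnajb12, which also had a shared region and is described with the Dnajb genes. Dnajc14, Dnajc16 and Dnajc18, which had shared regions and are described with the Dnajc genes, were not on it either. Hspa5 encodes BiP, the Hsp70 of this compartment and a sensor of unfolded proteins. Its fold enrichment was 5.30 in WT replicate 3 and 6.58 in WT replicate 4, with 19 and 33 fragments at the summit. Hsp90b1 encodes GRP94, the Hsp90 of the same compartment, and had 10.1 and 5.08, on chromosome 10 from 86705503 to 86706047. Its summit lay 358 bp from Hsp90b1 and 9 bp from the neighbouring gene Ttc41. Dnajc25 is described with the edKO hearts. Dnajb9 (3.45) and Dnajc1 (4.39) had peaks in WT replicate 3 only, and Hspa13, Dnajb11, Dnajc3 and Dnajc10 had none in any heart.

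Of the 11 Hsp70 genes 4 had a shared region (36.4%, interval 10.9 to 69.2%, against 15.2% of all genes). The heat-inducible copies were not among them. Hspa8, which encodes the constitutive Hsc70, had 2 shared regions upstream of the gene on chromosome 9. The farther region, from 40799888 to 40800460, had 10.3 in WT replicate 3 and 9.92 in WT replicate 4. Its neighbour, nearer to the gene, from 40800643 to 40801090, had 9.81 and 5.38. Counting intervals of the hearts overlapped for both. Hspa12b, an atypical member expressed in endothelium, had a low region 2979 bp upstream of its start (4.59 and 4.12, with 15 and 16 fragments).

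The inducible genes Hspa1a and Hspa1b, with Hspa1l beside them on chromosome 17, had peaks in WT replicate 3 only. A peak between Hspa1a and Hspa1l, 123 bp from Hspa1a and 424 bp from Hspa1l, had a fold enrichment of 5.45. Another, 325 bp from Hspa1b, had 3.62. Hspa1a and Hspa1b are near-identical copies, and no source used here says how reads that fit both were placed. These positions are uncertain for that reason. Hspa2, Hspa12a, Hspa13 and Hspa14 had no peak.

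The Hsp110 genes, whose products exchange the nucleotide of Hsp70, all had a peak in WT replicate 3 (against 42.4% of all genes). A shared region lay near 2 of the 3 (66.7%, interval 9.43 to 99.2%, against 15.2%). Hspa4 had its shared region 8511 bp upstream, on chromosome 11 from 53308186 to 53309282, at 10.6 in WT replicate 3 and 8.41 in WT replicate 4. A peak at its start, 293 bp upstream, was listed in WT replicate 3 alone (7.24, 29 fragments). Hsph1 had 7.45 and 4.84 at its promoter, on chromosome 5 from 149636325 to 149636858. Hspa4l had a peak of 4.45 in WT replicate 3. Among the Hsp90 genes, the cytosolic Hsp90aa1 and Hsp90ab1 each had 3 peaks in WT replicate 3 and none in WT replicate 4. Their fold enrichments were 3.83 to 4.77 at Hsp90aa1 and 4.59 to 5.74 at Hsp90ab1. The median over all peaks of that heart was 5.46, above all of these but the highest at Hsp90ab1.

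**Figure D2:**
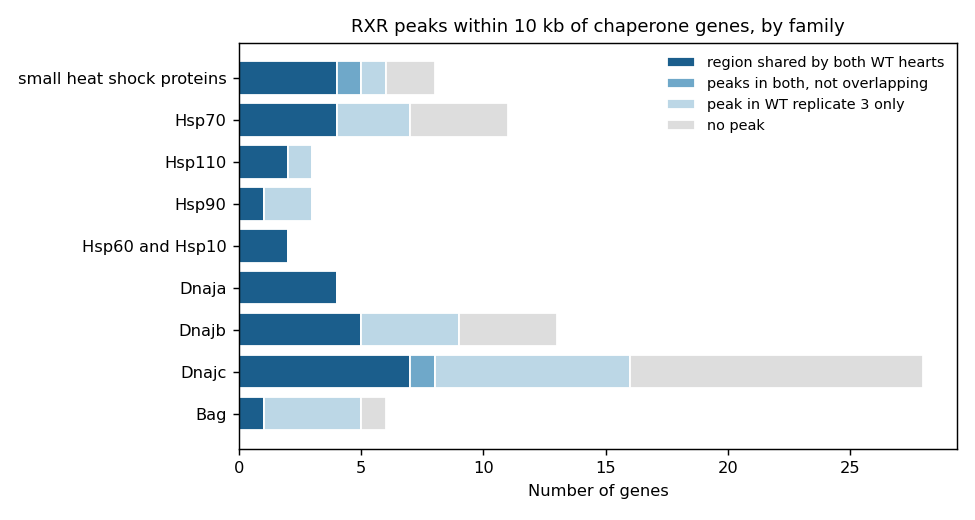
Bars count the members of each chaperone family by their RXR peaks within 10 kb: a region shared by both WT hearts, peaks in both that do not overlap, a peak in WT replicate 3 only, or no peak. All 4 Dnaja genes and both Hsp60 and Hsp10 genes had a shared region, while 12 of 28 Dnajc genes and 4 of 13 Dnajb genes had no peak. Over all protein-coding genes 15.2% had a shared region.

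The J-domain genes fall into the classes Dnaja, Dnajb and Dnajc, and counts are given for each without a test between them. All 4 Dnaja genes, which encode the general Hsp70 partners of the cytosol and mitochondria, had a shared region (interval 39.8 to 100%, against 15.2%). Dnaja1 had 7.33 in WT replicate 3 and 7.53 in WT replicate 4, on chromosome 4 from 40721888 to 40722541. Dnaja4 had 10.0 and 4.26, and its summit lay 324 bp downstream of a start. Its fold intervals did not overlap, while the intervals of its fragments did. Dnaja2 had 5.11 and 5.81 over its start. The hearts thus gave nearly the same value at Dnaja1 and Dnaja2, and a higher value in WT replicate 3 at Dnaja3 and Dnaja4.

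Of the 13 Dnajb genes 5 had a shared region (38.5%, interval 13.9 to 68.4%, against 15.2% of all genes). Dnajb12, which encodes a J-domain protein of the endoplasmic reticulum membrane, had 1 region at each end. At the start, on chromosome 10 from 59879082 to 59879780, the fold enrichment was 17.1 in WT replicate 3 and 3.87 in WT replicate 4, with 89 and 19 fragments. At the far end, from 59899539 to 59900058, it was 5.60 and 7.01. The end with the higher value thus differed between the hearts. In WT replicate 4 the fold intervals of the ends overlapped (2.41 to 5.94 and 4.55 to 10.4), so that heart does not settle which was higher. Dnajb5, a J-domain protein that binds histone deacetylase 4 in stressed cardiomyocytes, was the member with the most shared regions, 3 in all, with summits inside the gene at 309, 3247 and 3917 bp from its upstream end. Their fold enrichments were 6.32, 5.17 and 5.75 in WT replicate 3 and 9.05, 5.84 and 4.87 in WT replicate 4.

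The other Dnajb regions lay in or beside other genes. That of Dnajb4, at 8.34 and 5.26, had its summit inside Fubp1, but the nearest gene end was that of Dnajb4, 596 bp away. The region of Dnajb13, a gene of sperm flagella, lay inside the uncoupling protein gene Ucp2, 9218 bp from Dnajb13 (5.45 and 5.08). That of Dnajb7 lay 18 bp from St13, which encodes an Hsp70 co-chaperone (6.06 and 3.39). Dnajb14 (6.32), the heat-inducible Dnajb1 (5.17), Dnajb2 (5.04) and Dnajb9 had peaks in WT replicate 3 only. Dnajb3, Dnajb6, Dnajb8 and Dnajb11 had none.

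Of the 28 Dnajc genes 7 had a shared region, or 25% (interval 10.7 to 44.9%, against 15.2% of all genes). Beside Dnajc19 and Dnajc11 these were Dnajc18, Dnajc16, Dnajc4, Dnajc14 and Dnajc25. Dnajc18 had its region inside the gene, on chromosome 18 from 35675380 to 35675933, at 11.6 in WT replicate 3 and 9.39 in WT replicate 4. Dnajc16 had 1 region inside the gene (9.79 and 4.36) and 1 at its start (5.85 and 4.26). The region counted for Dnajc4 had its summit inside Fkbp2 and 7549 bp from Dnajc4 (7.75 and 5.98). The summits taken for the hearts lay 467 bp apart, the largest shift of the 34 regions, against a median of 45 bp. Other WT replicate 4 peaks overlapped the same WT replicate 3 peak, and only the highest was taken. The summits of these other peaks lay at 6979415 and 6980452, and that of WT replicate 3 at 6980362. The shift thus depends on which peak was taken. Dnajc14 had 5.32 and 6.55, with the summit inside the gene and 136 bp from the neighbour Tmem198b.

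Peaks of WT replicate 3 alone lay near 8 Dnajc genes, among them Dnajc5, which encodes the synaptic vesicle chaperone CSP-alpha (8.82), Dnajc13 (6.32), Dnajc21 and Dnajc27 (5.85 each). Dnajc7 had a peak in each WT heart, 5.02 and 5.26, at places that did not overlap. The 12 Dnajc genes without a peak were Dnajc2, Dnajc3, Dnajc5b, Dnajc5g, Dnajc6, Dnajc8, Dnajc10, Dnajc12, Dnajc22, Dnajc24, Dnajc28 and Dnajc30.

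**Figure D3:**
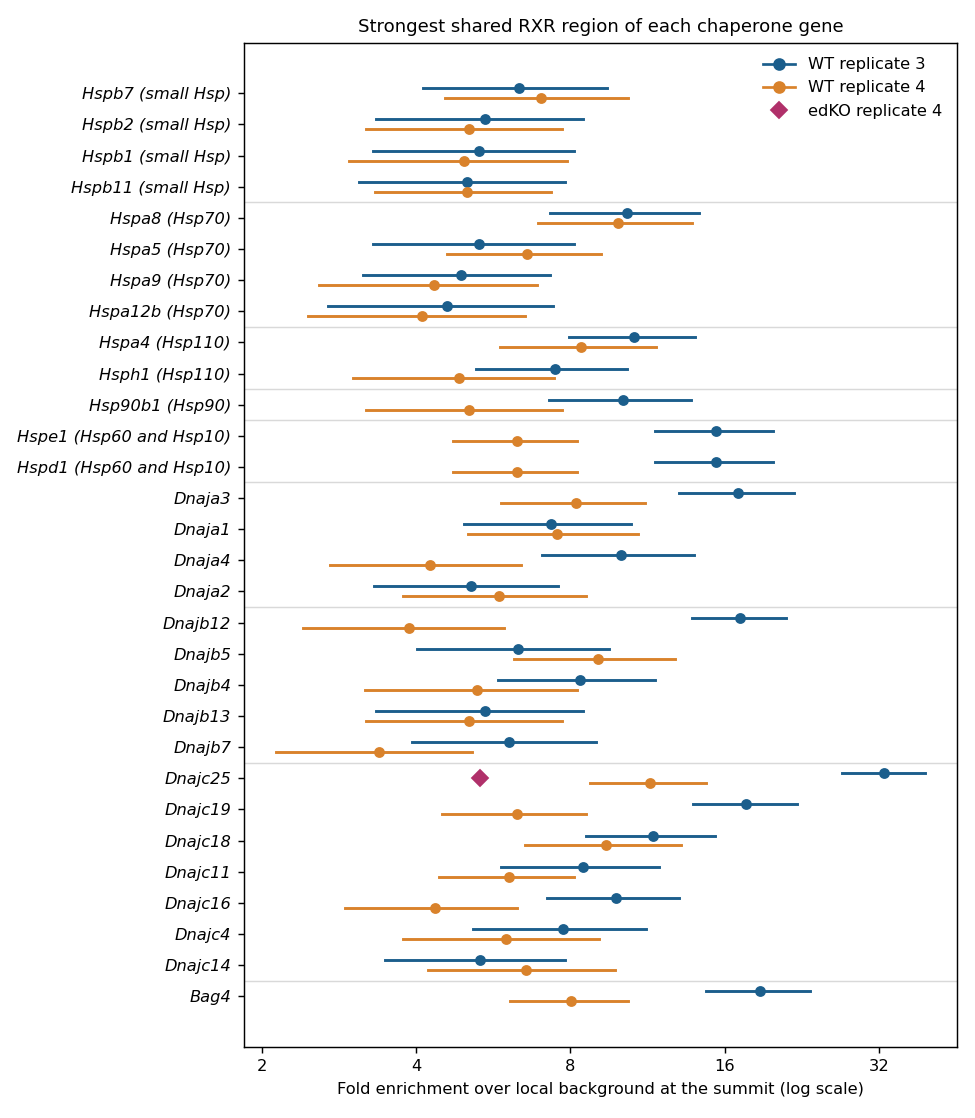
Fold enrichment (log scale) of the strongest shared region of the 30 chaperone genes in WT replicates 3 and 4, with lines for the 95% Poisson interval of the recovered fragments at a fixed background. The diamond is the edKO replicate 4 peak near Dnajc25, at 5.32, below both WT values of 32.7 and 11.4.

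Of the 8 small heat shock protein genes 4 had a shared region (50%, interval 15.7 to 84.3%, against 15.2% of all genes). The median fold enrichment at the strongest region was 5.38 in WT replicate 3 and 5.06 in the other WT heart. Hspb7, a cardiac and skeletal muscle member needed for sarcomere assembly, had 6 peaks in WT replicate 3, more than any other member. Their fold enrichments ran from 3.62 to 9.76. The highest, 761 bp downstream of the start with 33 fragments, had no peak in WT replicate 4. The shared peak lay 694 bp beyond the far end of the gene, on chromosome 4 from 141425730 to 141426195, at 6.36 and 7.01. Hspb1, which encodes Hsp25, had 5.30 and 4.97 at its promoter, on chromosome 5 from 135887655 to 135888014.

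The gene Hspb2 shares its locus with Cryab, which encodes alphaB-crystallin, the most abundant small heat shock protein of the heart. The shared summit lay inside Cryab as annotated, 3806 bp from its nearer end, and 476 bp from Hspb2 (5.45 and 5.08). The region ran on chromosome 9 from 50752738 to 50753158. Hspb11, now known mainly as a subunit of intraflagellar transport, had 5.04 and 5.03 at its start. Hspb6, which encodes Hsp20, had a peak in each heart, but these did not overlap: 6.23 lay 76 bp upstream of a start in WT replicate 3 and 4.33 lay 184 bp downstream of another start in WT replicate 4. Hspb9 (5.04) had a peak in WT replicate 3 only. Hspb3 and Hspb8, a partner of Bag3 in chaperone-assisted autophagy, had none.

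BAG genes had a shared region in 1 of 6 cases (16.7%, interval 0.421 to 64.1%), close to the 15.2% of all genes. The Bag4 region, on chromosome 8 from 25785152 to 25785651, was next to Dnajc25 by mean fold enrichment, at 18.7 in WT replicate 3 and 8.02 in WT replicate 4. Its summit lay inside the neighbouring gene Lsm1, 61 bp from the end of Lsm1 and 170 bp from Bag4. Bag3, whose product guards the Z-disc and whose mutations cause dilated cardiomyopathy, had the highest peak of the list without a partner in WT replicate 4. This peak, inside the gene and 9117 bp from an end, had a fold enrichment of 12.1 with 41 fragments. A second Bag3 peak, 775 bp downstream of the start, had 4.51. Bag2 (8.61, 46 bp upstream of the start), Bag5 (up to 6.03 over 4 peaks) and Bag6 (4.02) also had peaks in WT replicate 3 only, and Bag1 had none.

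**Figure D4:**
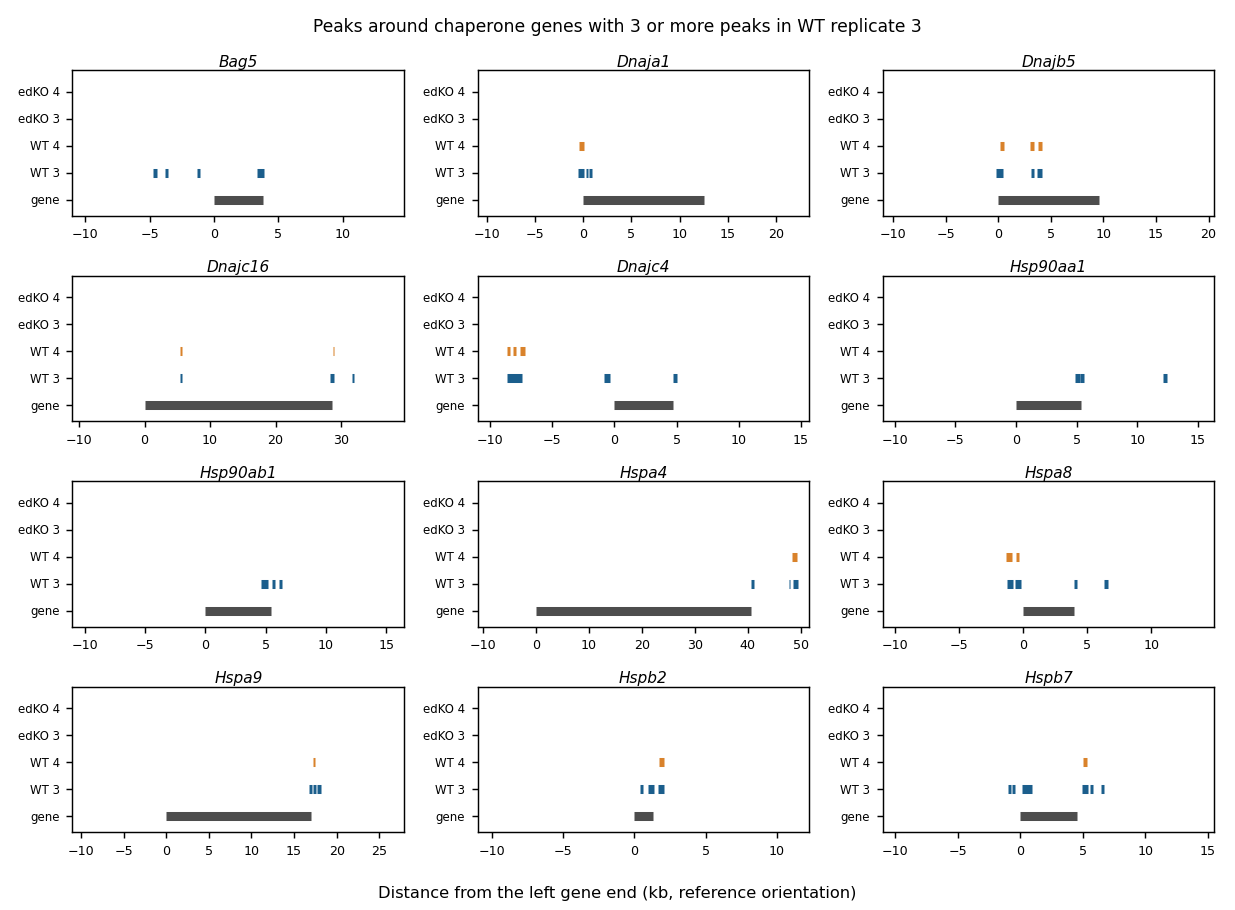
Peaks of each heart within 10 kb of the 12 members with 3 or more peaks in WT replicate 3, drawn in kb from the left gene end in the orientation of the reference, with the gene as a grey bar. WT replicate 4 has a peak at 9 of these 12 genes, and neither edKO heart has a peak at any of them.

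Peaks in edKO hearts were nearly absent around chaperone genes. Within 10 kb of a member, WT replicate 3 had 98 peaks and WT replicate 4 had 38. In the edKO hearts, replicate 3 had 0 and replicate 4 had 1. The mean was 68 ± 42.4 (SD, n = 2) in WT hearts and 0.5 ± 0.707 (SD, n = 2) in edKO hearts, and the groups did not overlap. The exact permutation test over hearts gave a two-sided p = 0.333, the smallest that 2 hearts against 2 allow. The difference of the means was 67.5 peaks, and 37.5 without WT replicate 3. The whole lists fell in the same direction, from 19129 and 4697 peaks in the WT hearts to 8 and 127 in the edKO hearts, so the member peaks made up 0.512% and 0.809% of the WT lists and 0.787% of the list of edKO replicate 4. In edKO replicate 3, 0 of 8 peaks allows a share of up to about 37.5%, an approximate bound of 3 counts over 8 peaks. This says nothing about chaperone genes in particular.

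The edKO peak lay near Dnajc25, which encodes a J-domain protein that is little studied, in the strongest region of the list. This region, on chromosome 4 from 59034921 to 59035406, reached 32.7 and 11.4 in the WT hearts (replicates 3 and 4) and 5.32 in edKO replicate 4. The fragments at the summit numbered 113 (93.1 to 136), 58 (44.0 to 75.0) and 25 (16.2 to 36.9). The edKO count thus lay below both WT counts, with intervals that did not overlap, although counts were not adjusted for library depth. The summit lay 9575 bp from Dnajc25 and 8 bp from Gng10, which encodes a G protein gamma subunit, so the region belongs to Dnajc25 by the distance rule and not by proximity. With that region, 1 of 78 members (1.28%) had a peak of edKO replicate 4, against 0.58% of all genes, and 0 of 78 had a peak of edKO replicate 3, against 0.0548%.

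The remaining 33 regions had no peak in either edKO list. Of all 4342 shared WT regions, 2.88% overlapped a peak of edKO replicate 4 and 0.184% a peak of edKO replicate 3. A place without a listed peak lies below the caller's threshold and is not shown to be unbound. The lowest listed fold enrichments of the edKO hearts were 3.97 (replicate 3) and 3.08 (replicate 4). All 34 member regions exceeded both values in WT replicate 3. In WT replicate 4, 34 exceeded the value of edKO replicate 4 and 32 that of edKO replicate 3. By −log10 p, 33 regions in WT replicate 3 and 24 in WT replicate 4 exceeded the lowest value listed in edKO replicate 3, which was 9.53. The recovered lowest background was 3.11 and 2.96 fragments in edKO replicates 3 and 4, and 2.48 and 2.32 in WT replicates 3 and 4.

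Most member regions were higher in WT replicate 3, as were 82.7% of all shared regions. The fold enrichment was higher in WT replicate 3 at 26 of the 34 regions, with fold intervals, at fixed backgrounds, apart at 8 of them (23.5%, against 26.2% of all shared regions). It was higher in WT replicate 4 at 8 regions, with fold intervals apart at 0 (against 0.392% of all). The 8 regions higher in WT replicate 3 were those of Dnajc25, Bag4, Dnaja3, Dnajc19, Hspd1 with Hspe1, the start of Dnajb12, Dnaja4 and the inside of Dnajc16. Among these, the intervals of the fragments themselves were apart at Dnajc25, Dnajc19 and Dnajb12 and overlapped at the others, whose separation thus rests also on the backgrounds of the hearts. Across the 34 regions, which share both libraries, the Spearman rank correlation of the fold enrichments was 0.40, and across all shared regions 0.56. The strongest region of the 30 genes had a median fold enrichment, averaged over the hearts, of 7.11, against 7.97 for all 3318 genes with a shared region. Taken by heart, the medians were 8.04 against 9.59 in WT replicate 3, and in WT replicate 4 they were 6.03 against 6.13. By the same average 9 of the 34 regions stood in the upper part of the 4342 when these were split at the middle rank (26.5%).

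Peaks near chaperone genes recurred in the second heart in 34 of 98 cases in WT replicate 3, or 34.7%, against 25% of all peaks of that heart within 10 kb of a gene. The median fold enrichment of these 34 was 7.39. Over the other 64 it was 5.03, with a range of 2.67 to 12.1. Of those 64 peaks 5 stood above the median of the shared ones, the highest being that of Bag3. In the other direction, 36 of 38 member peaks in WT replicate 4 had an overlapping partner in WT replicate 3, and the other 2 were those near Dnajc7 and Hspb6. Such a partner was as common over the whole list, where at least 4342 of the 4697 peaks of WT replicate 4 had it.

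The distance of the regions from gene ends was compared with that of all regions near genes. Counted as pairs of a gene and a region, 23 of 35 had the summit within 1000 bp of a gene end (65.7%, 95% Clopper-Pearson interval 47.8 to 80.9%), against 48.1% of all such pairs within 10 kb, a share that lies inside this interval. The summit lay inside the gene in 11 of the 35 (31.4%, against 40% of all pairs). A start site was known for 28 pairs, and the summit lay within 1000 bp of it in 17 (60.7%, against 49.6% of all pairs with a known start). Of those 17 summits 14 were upstream and 3 downstream. The upstream ones made up 50% of the 28 pairs, against 30.4% of all pairs with a known start. Within 1000 bp, a shared region lay near 22 of the 78 genes, against 8.38% of all genes. The nearest protein-coding gene was a member for 27 of the 34 regions, and with only the nearest gene counted, 22 members had a region, against 10.5% of all genes.

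**Figure D5:**
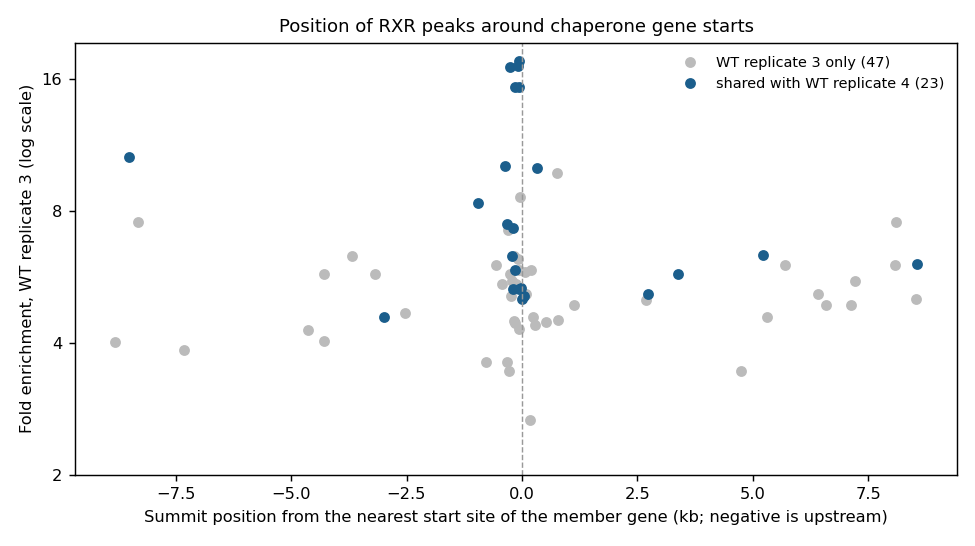
Summits of WT replicate 3 peaks by their distance from the nearest start of the member gene (kb, negative is upstream) and their fold enrichment (log scale), for the 70 gene and peak pairs within 10 kb of a known start. Blue points are peaks shared with WT replicate 4 (23) and grey points the others (47). Of the 70, 43 lie within 1 kb of the start, 31 of them upstream, and no share over all genes is given for these counts.

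Other genes of the chaperone system were read from a list of 43 heat shock factors, crystallins, Hsp90 and Hsp70 co-chaperones, chaperonin and prefoldin subunits. A shared region lay near 15 of the 43 (34.9%, interval 21.0 to 50.9%), against 15.2% of all genes, and 2 of these regions were those already counted for Hspb2 and Dnajb7. Hsf1, the master regulator of the heat shock response, had a region 69 bp from its end and also near Bop1, at 11.6 in WT replicate 3 and 9.22 in WT replicate 4. Hsf2 and Hsf4 had peaks in WT replicate 3 only, and Hsf5 none. Grpel1, the nucleotide exchange factor of mitochondrial Hsp70, had 12.8 and 16.3, higher in WT replicate 4.

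Among cytosolic co-chaperones, Fkbp4, a steroid receptor partner of Hsp90, had 14.5 and 6.78, and Hspbp1, which exchanges the nucleotide of Hsp70, had 14.3 and 7.97. Stub1, the ubiquitin ligase CHIP, had 13.2 and 3.96. Unc45b, the myosin chaperone of striated muscle, had 2 shared regions, the stronger at 11.1 and 5.81 and 7919 bp from the gene. Serpinh1, the collagen chaperone Hsp47, had 3, the strongest at 7.08 and 3.73. Tomm70a, a mitochondrial import receptor for chaperone-bound proteins, had 13.5 and 6.45. Of the 8 chaperonin genes Tcp1 and Cct2 to Cct8, regions lay near Cct7 (9.47 and 4.12), Cct2 (7.67 and 6.05) and Tcp1 (6.76 and 3.49). Pfdn1 (14.0 and 7.01), Hspbap1 (7.42 and 5.76), St13 and Cryab completed the 15. The summit lay 7318 bp from Cct2, 5595 bp from Pfdn1 and 3016 bp from Fkbp4. Other genes also lay within 10 kb of the strongest regions of Grpel1, Hspbp1, Stub1, Unc45b, Cct7, Cct2, Tcp1 and Hspbap1. No gene of this list had an edKO peak.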

How the data were processed

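RXR ChIP-seq and input libraries of 4 newborn hearts were made, at about 20 M reads per sample per the labels' protocols. Per the submitters' processing notes, the authors used cutadapt, BWA, SAMtools and MACS3 on mm10 (GRCm38), with versions and settings not given in the sources used here. Each heart has its own list, named in the labels of both its libraries. The deposited files give, for each peak, a fold enrichment (a ratio), a −log10 p, a −log10 q, a score that is the −log10 q times 10 cut to a whole number, and positions. The score was not used.

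Groups and numbers came from the titles. Peaks of the WT hearts overlapping by at least 1 bp formed a region, with the summit of WT replicate 3. Gene ends and starts came from RefSeq tables of GRCm38.p6. Distances run from the summit to the nearer gene end. The fragments at a summit were solved from the Poisson −log10 p and the fold enrichment (1 added above and below). This gave a whole number with −log10 p matched within 0.01 for 99.96% of the peaks of WT replicate 3 and 100% of the others. WT replicate 4 and edKO replicate 3 needed a scale of 0.967 and 0.992. Summit counts started at 11, 12, 24 and 17 fragments in WT replicates 3 and 4 and edKO replicates 3 and 4. Whether duplicate reads were removed is not given. The scripts (Python 3.11.15, pandas 2.3.3, scipy 1.17.1) were tested on simulated data. Intervals are 95% exact.

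Named were every member with a shared region or an edKO peak, the 3 strongest members of each family with peaks in WT replicate 3 only, and members without a peak. Other members with peaks were named after their values were seen. The members, lists and rules were chosen with earlier results of these data known.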

Additional observations from a re-analysis of the deposited data

How the results depend on the processing

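The count of 30 members with a shared region lay between 22 and 43 under the other settings tried with both WT hearts (distances of 1000 bp and 50 kb, an overlap of 50% of the shorter peak, a −log10 q of at least 5, the nearest gene only, symbols without a digit), and all genes moved too, from 8.38 to 31.9%. Leaving out a WT heart gave 32 to 55 members. Recovered fragments in place of fold enrichment gave a median of 27 fragments at the strongest region, a change of unit by construction. Leaving out a WT heart gave a median fold enrichment of 6.03 to 8.04 and a share within 1000 bp of a gene end of 57.8 to 61.5%. With the closest region in place of the strongest, Hspa8 went from 10.1 to 7.59 and Dnajc16 from 7.08 to 5.06.

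The difference of 67.5 peaks between genotypes was 40 at 1000 bp, 147 at 50 kb and 42 with a common −log10 p of at least 10, and leaving out each heart gave 37.5 to 97.5. The replicate numbers are not stated to mark a litter or a day. Taking them as pairs (replicate block, difference 67.5), the exact sign-flip permutation test gave p = 0.5, the smallest 2 pairs allow. With 2 hearts a group, no test over hearts can reach 0.05. The lists do not give the depth of each library, and its part in a missing peak was not tested.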

Other observations

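Just inside the 10 kb limit lay the regions counted for Hspa4 (8511 bp, fold enrichments of 10.6 and 8.41 in WT replicates 3 and 4), Dnajb13 (9218 bp, 5.45 and 5.08) and Dnajc25 (9575 bp, 32.7 and 11.4). Just outside lay a region 11262 bp from Dnajc4 (5.45 and 4.97), a region 11431 bp from Hsp90ab1 (27.3 and 11.6) and another one 12470 bp from Dnajb12 (9.47 and 5.08). The region 11431 bp from Hsp90ab1 was thus higher than 33 of the 34 counted regions in WT replicate 3. Whether it lay nearer to another gene is not given here. The peaks within 10 kb of this cytosolic Hsp90 gene were all in WT replicate 3 and all under 6.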
